A study of Mus musculus with 6 samples.

Results

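The genes that fold, modify and export collagen in the endoplasmic reticulum (ER) were followed in mouse calvaria-derived cells with and without functional Fas ligand. They were chosen by symbol: 46 mouse genes that encode collagen hydroxylases, chaperones, disulfide isomerases, regulators of the unfolded protein response and proteins of ER export. These symbols matched 47 of the 57180 gene rows of the count table, because Ddit3 has a second identifier, which was at 0 in every library. Of the 46 genes, 31 had enough counts to be tested and 15 did not. In cells without functional Fas ligand 12 of the 31 were higher, beside 9.74% of all 8692 genes tested. With 1 library left out and the low-count filter applied anew, 31 to 35 genes were tested. Of these, 7 to 13 were higher, with 7 to 11 of the 12 among them, beside 7.20% to 8.69% of all genes tested in those fits.

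Procollagen chains enter the ER as they are made. Prolyl and lysyl residues are hydroxylated there, sugars are added to hydroxylysine, disulfide bonds align the chains, and the triple helix then zips up under the care of chaperones such as HSP47 (Serpinh1). Folded procollagen leaves the ER in carriers built by the COPII coat, while chaperones that escape are brought back by receptors for the KDEL tail. Osteoblasts secrete collagen I in bulk, and inherited defects in several of these genes cause brittle bone disease. When unfolded protein accumulates, the sensors of the unfolded protein response raise the transcription of chaperones through the factors encoded by Xbp1, Atf6 and Atf4.

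The cells grew out of the skull vault of C57BL/6 mice (wt, 3 libraries) or of mice homozygous for gld (B6Smn.C3-Faslgld/J, labelled FasL KO, 3 libraries), a point mutation in Fasl that leaves its protein unable to act on the receptor Fas. Both groups were kept in the same osteogenic medium, MEM alpha with 10% fetal bovine serum, 1% penicillin and streptomycin, 50 mg/ml ascorbate as the labels give it, and 4 mM β-glycerophosphate. Ascorbate is the cofactor that collagen prolyl and lysyl hydroxylases need. The study also describes a stimulation of gld cells with Fas ligand at day 14 for 72 h, cultured in parallel, but no such library was analysed here. Neither the mice's age nor the number of animals or cultures behind a group is stated, so a p-value here reflects how far these particular libraries scatter, and that scatter may be technical.

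Library totals ran from 2011173 to 3105322 counts in wt and from 4048258 to 5245546 in FasL KO. Fasl was listed at 0 in all 6 libraries, which checks no label because gld changes the protein and not necessarily the transcript. Of 12 osteoblast markers, 5 were tested. Col1a1, Col1a2 and Ibsp rose and Alpl fell, while Bglap, Spp1 and Sp7 had 1, 4 and 20 counts in sum and Dlx5 was listed at 0. Markers of other cell types moved with the groups. Of 20 macrophage and osteoclast markers, 10 were tested, 9 rose and Cd14 fell. In CPM, the counts of a gene scaled to a common library size, their summed level was between 425 and 615 in wt and between 2801 and 6813 in FasL KO. Most of the wt sum came from Cd14 and Ctsk, at means of 274 and 172 CPM. Lyz2, at a mean of 3236 CPM, made up most of the FasL KO sum. Csf1r, Adgre1, Tyrobp, Fcer1g, Cd163, Ctss and Acp5 were listed at 0. Chondrocyte markers rose in 4 of 5 tested of 10 (Sox9, Acan, Col9a2 and Col11a2), and Hapln1 did not pass. Their summed level ran from 217 to 224 CPM in wt and from 1046 to 1083 CPM in FasL KO. Sox9 made up most of both sums, at means of 215 and 788 CPM. Matn1, Col2a1 and Comp had 24, 9 and 2 counts in sum, and Col9a1 and Snorc were listed at 0. Myofibroblast markers fell in 4 of 4 tested of 7, from between 6783 and 7521 CPM to between 3202 and 3364 CPM. Of 8 markers of plasma cells, which are rich in ER, Ighm rose and Sdc1 did not pass, and Jchain, Mzb1 and Igkc were listed at 0. In these bulk samples fewer cells of a type and less RNA per cell cannot be told apart, and the part of other cell types in the results below was not tested.

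Whether a gene gave counts went with how its transcript end is annotated. The libraries hold 3′ end tags, so the final 300 exonic bases of the main transcript (GENCODE M21) were compared with the gene's other transcripts. For 27 of the 46 genes at least 99% of these bases belonged to 1 transcript. Their counts summed to a median of 2955, and 23 of them were tested. For the other 19, whose end is shared between transcripts, the median was 24 counts, and 8 were tested. Low sums, under 30 counts, were found in 51.5% of the 11160 protein-coding genes whose end lies in 1 transcript and in 79.1% of the 10584 whose end is shared. The collagen chaperone gene Serpinh1 and the stress genes Atf4 and Herpud1 have shared ends and were listed at 0 in all 6 libraries. Such a 0 cannot be read as absence of the transcript, and whether the shared end accounts for it was not tested. Hspa5, which encodes the main ER chaperone BiP and has a single-transcript end, had only 27 counts in sum.

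**Figure D1:**
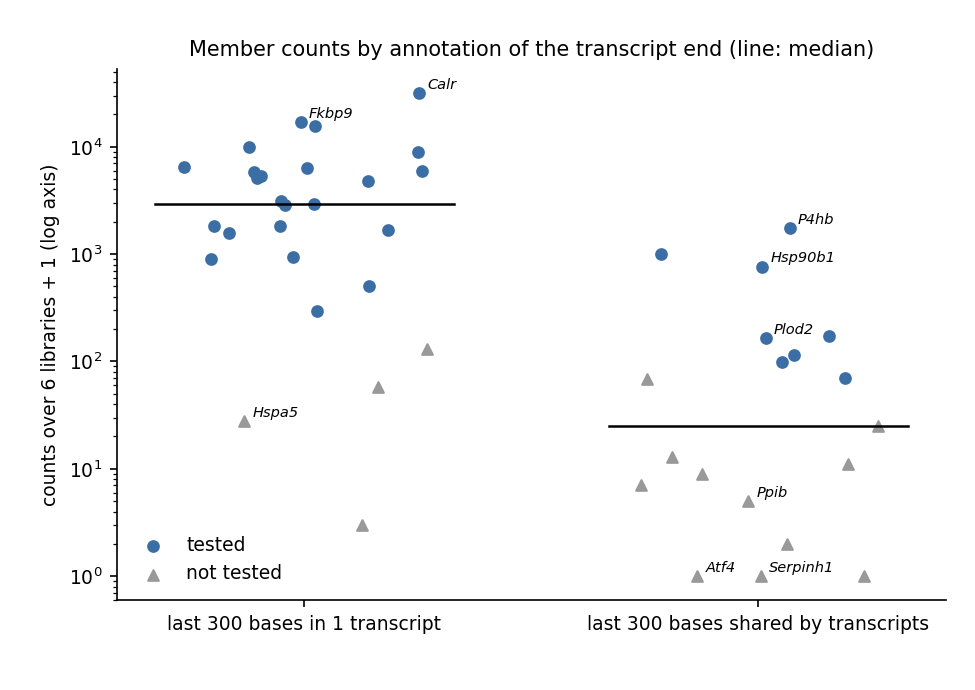
Counts over the 6 libraries, plus 1, on a log axis, for the 46 genes split by whether the last 300 exonic bases lie in 1 annotated transcript. Each point is a gene, circles were tested, triangles were not, and lines mark medians. Genes with a shared end sit lower (median 24 counts against 2955), with Serpinh1 and Atf4 at 0.

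Of the 31 tested genes, 12 rose in FasL KO (38.7%) and 0 fell, in edgeR's quasi-likelihood test with Benjamini-Hochberg adjustment over all 8692 genes tested and a threshold of 0.05. Of all 8692 genes, 17.4% were past this threshold, 9.74% higher and 7.69% lower in FasL KO. At an unadjusted p under 0.05, 16 of the 31 were higher and 1 was lower, and DESeq2 and limma-voom each called 13 higher and 0 lower. The number higher was 7 of 31 tested without FasL KO 3 and 8 of 35 tested without wt 1. The median log2 fold change was 0.57 over the 31 genes and 0.02 over all genes tested. The fold change was above 0 in 27 of the 31 and in 51.3% of all genes, and the CPM of the groups did not overlap in 17 of the 31 and in 33.3% of all genes. A gene such as Plod2 entered the test only through its counts in FasL KO, so these shares describe the genes that passed the filter and not all 46.

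Most of the rises were small. Of the 12 that rose, 9 rose by less than 2-fold, and 6 kept their call in each of the 12 alternative fits: Fkbp9, Calr, Kdelr2, Kdelr3, P4hb and Plod2. Of these, Plod2 passed the low-count filter only through its FasL KO counts. Scaling by library size alone shifted all genes by a median of −0.16 in log2 and the split of all calls from 55.9% higher to 42.5% higher. Under that scaling 8 of the 31 rose and Sar1b fell. The median of the 31 genes was then 0.41 and that of all genes −0.14.

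**Figure D2:**
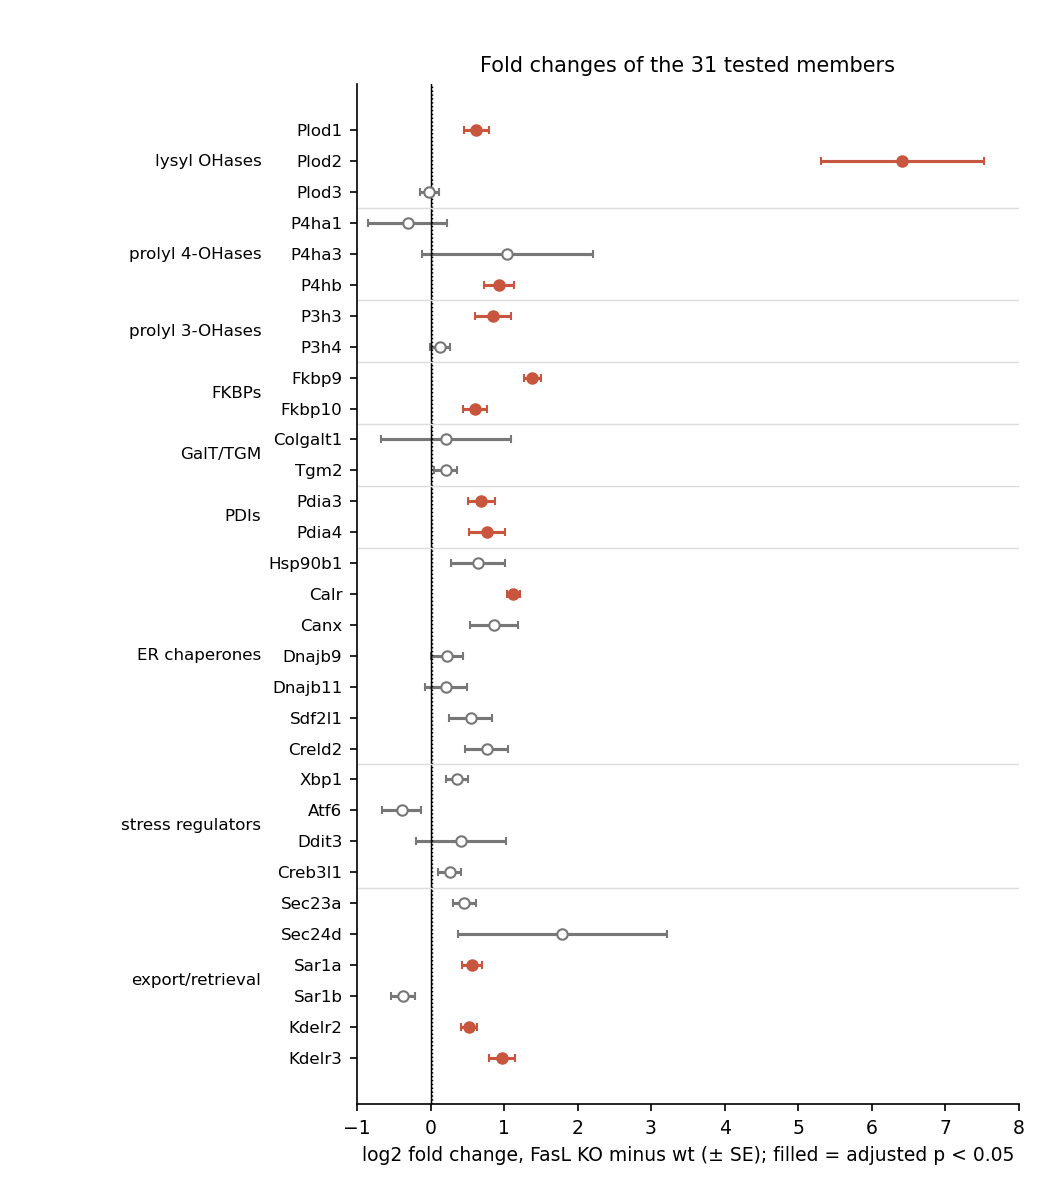
Log2 fold change, FasL KO minus wt, with its standard error, of the 31 tested genes in order of role (filled, past an adjusted p of 0.05). The dotted line is the median of all genes, 0.02. Open symbols for stress regulators and most ER chaperones stand beside filled ones for FKBPs, disulfide isomerases and KDEL receptors.

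Among lysyl hydroxylases, which prepare lysines for crosslinks and sugars, Plod2 and Plod1 rose and Plod3 did not pass. Plod2 (ENSMUSG00000032374, GRCm38 chromosome 9, 92542223 to 92608428, plus strand), which hydroxylates lysines of the collagen telopeptides, had 1, 0 and 0 counts in the wt libraries, against 73, 62 and 28 in FasL KO. All 3 FasL KO libraries were above all wt libraries. The ratio of pooled levels was 109.95, with a 95% exact counting interval from 19.5 to 4369 that covers counting error only. The edgeR adjusted p was 0.000753, and that of limma-voom was 0.0464. Plod2 passed the low-count filter only through its FasL KO counts, so neither p-value is independent of the level in that group. The fitted log2 fold change, 6.42 ± 1.11 (SE), was 8.68 without wt 1, the only wt library with a count. The end of Plod2 is shared between transcripts. Plod1, which hydroxylates lysines of the helix, was at 103, 124 and 102 CPM in wt and at 190, 141 and 176 CPM in FasL KO. The counts behind these levels were 219, 392 and 332 in wt and 761, 534 and 857 in FasL KO. The groups did not overlap, and Plod1 rose by 0.62 ± 0.17 on the log2 scale (SE, edgeR adjusted p = 0.0179). This call was lost without wt 1 (edgeR adjusted p = 0.0728), wt 3 (0.0863), FasL KO 1 (0.0968) or FasL KO 3 (0.0600) and under scaling by library size (0.0664). Plod3, which also adds sugars to hydroxylysine, was at 423 ± 54.0 CPM in wt and 418 ± 32.2 CPM in FasL KO (SD, n = 3), a log2 fold change of −0.01 ± 0.13.

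Collagen prolyl 4-hydroxylase, whose product stabilises the triple helix, is a tetramer of catalytic α subunits and the disulfide isomerase P4hb. P4hb (ENSMUSG00000025130, chromosome 11, 120560298 to 120573253, minus strand) was at 54.0, 59.1 and 47.6 CPM in wt and at 112, 113 and 81.9 CPM in FasL KO. In counts, this was 115, 187 and 155 in wt and 449, 428 and 399 in FasL KO. It rose 1.91-fold, by 0.93 ± 0.20 on the log2 scale (SE, edgeR adjusted p = 0.00481), without overlap of the groups. The end of P4hb is shared between transcripts, as are those of P4ha2 and P4ha3, while that of P4ha1 is not. Neither of the 2 tested α subunit genes passed. P4ha1 was at 11.3, 26.2 and 7.98 CPM in wt and at 11.0, 7.38 and 18.3 CPM in FasL KO, with overlapping groups and a log2 fold change of −0.31 ± 0.54. P4ha3 rested on 69 counts and had 1.05 ± 1.16. P4ha2 had 24 counts, all in FasL KO 1, and was not tested.

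Prolyl 3-hydroxylation is carried out by a complex of P3h1, Crtap and the cyclophilin Ppib, while P3h3 and P3h4 in mice form a complex with lysyl hydroxylase 1. P3h3 was at 37.6, 28.1 and 29.8 CPM in wt and at 52.4, 57.0 and 62.2 CPM in FasL KO. These levels rested on counts of 80, 89 and 97 in wt and 210, 216 and 303 in FasL KO. Without overlap, it rose by 0.85 ± 0.24 on the log2 scale (SE, edgeR adjusted p = 0.0232). The call was lost without wt 2 (edgeR adjusted p = 0.0791), wt 3 (0.0901), FasL KO 2 (0.0817) or FasL KO 3 (0.0853) and under scaling by library size (0.0619). P3h4 was at 226 ± 16.7 and 248 ± 23.3 CPM (SD, n = 3), with a log2 fold change of 0.13 ± 0.13. The 3 genes of the classical complex were not tested. Crtap had 4, 1 and 4 counts in the wt libraries, against 11, 27 and 21 in FasL KO, and P3h1 had 1 count and Ppib 4 in sum. All 3 have shared ends, as does P3h3. P3h2 had 2 counts.

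Both tested genes of the 6 collagen chaperones and FKBPs rose, with the larger rise in Fkbp9, a peptidyl-prolyl isomerase of the ER (ENSMUSG00000029781, chromosome 6, 56832059 to 56879358, plus strand). It was at 399, 415 and 413 CPM in wt and at 1056, 1190 and 953 CPM in FasL KO. The raw counts were 849, 1312 and 1344 in wt and 4233, 4511 and 4641 in FasL KO. Every FasL KO library exceeded the highest wt library by more than the spread within either group. The rise was 2.61-fold, 1.38 ± 0.11 on the log2 scale (SE, edgeR adjusted p = 7.39e-07), and ran from 1.23 to 1.44 over the 12 alternative fits. Fkbp10, which encodes FKBP65, an isomerase that works with HSP47 on procollagen, was at 182, 242 and 247 CPM in wt and at 316, 292 and 417 CPM in FasL KO. Before scaling, the counts were 388, 764 and 805 in wt and 1265, 1109 and 2029 in FasL KO. It rose by 0.61 ± 0.16 on the log2 scale (SE, edgeR adjusted p = 0.0172), a call that was lost without wt 1 (0.0935) or FasL KO 3 (0.108) and under scaling by library size (0.0651). Fkbp7, Fkbp11 and Fkbp14, isomerases with shared ends, had 8, 12 and 10 counts in sum.

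Of the enzymes that add galactose to hydroxylysine, Colgalt1 was tested and Colgalt2 was not. Colgalt1 was at 3.29, 3.48 and 7.06 CPM in wt and at 2.49, 1.85 and 11.7 CPM in FasL KO, with overlapping groups and a log2 fold change of 0.21 ± 0.88. Its end is shared between transcripts and overlaps Unc13a on the other strand. Colgalt2 had no count in wt and 7, 58 and 65 counts in FasL KO. Its mean level in FasL KO was 28.9 times a floor of 3 counts over the wt group. That ratio leaves out the scatter between libraries, and FasL KO 1 was at only 1.75 CPM. Colgalt2 lies 9.27 Mb from Fasl on chromosome 1 and Atf6 8.92 Mb, and whether the mutant strain carries donor sequence there was not tested. Tgm2, a transglutaminase that crosslinks matrix proteins, was at 252 ± 46.3 and 292 ± 38.3 CPM (SD, n = 3), with a log2 fold change of 0.21 ± 0.16.

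**Figure D3:**
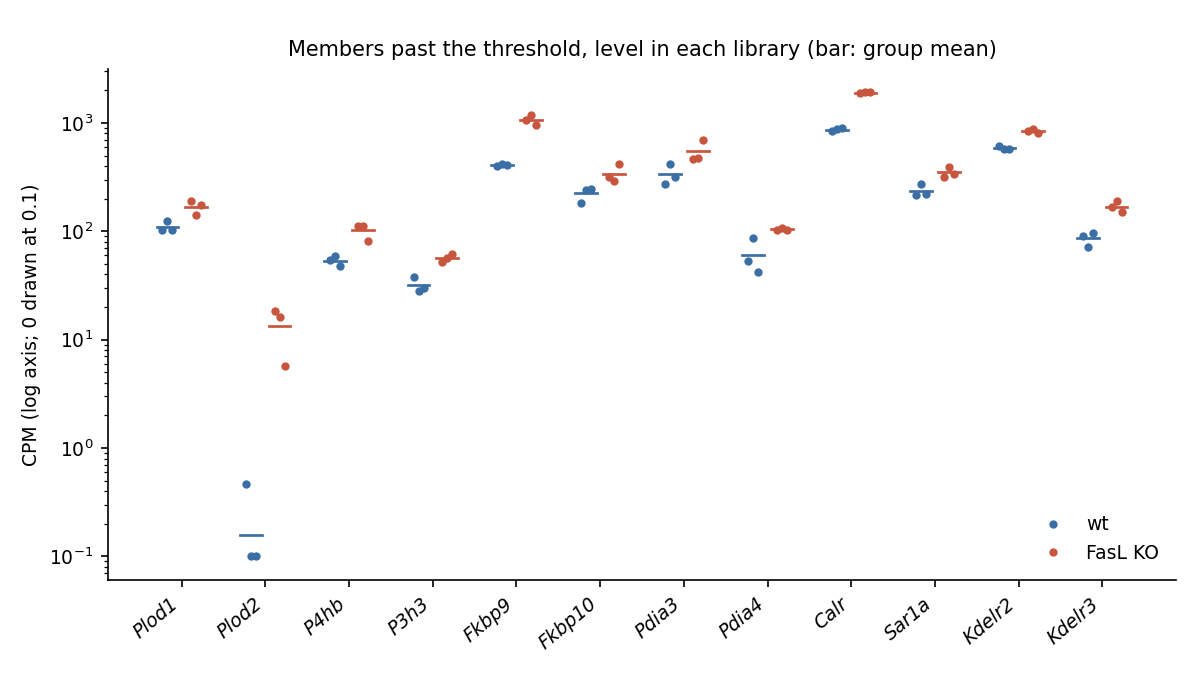
CPM in each library, on a log axis, of the 12 genes that rose (blue, wt; red, FasL KO; bars, means of 3 libraries; counts of 0 drawn at 0.1 CPM). In each of the 12 genes the 3 FasL KO libraries lie above the 3 wt libraries, from Plod2 near 0 in wt to Calr near 870 CPM.

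Disulfide isomerases rose, both of the 2 tested of 3. Pdia3, which pairs with calreticulin and calnexin on glycoproteins, was at 275, 420 and 320 CPM in wt and at 462, 477 and 701 CPM in FasL KO. The counts behind these levels were 585, 1327 and 1043 in wt and 1851, 1808 and 3416 in FasL KO. The groups did not overlap, although FasL KO 3 stood well above the other FasL KO libraries, and Pdia3 rose by 0.69 ± 0.18 on the log2 scale (SE, edgeR adjusted p = 0.0152). Without FasL KO 3 the log2 fold change was 0.45 and the call was lost (edgeR adjusted p = 0.0938), as it was without wt 1 (0.0808) or wt 3 (0.0740). Pdia4 was at 53.6, 86.9 and 42.1 CPM in wt and at 103, 107 and 103 CPM in FasL KO. In counts, this was 114, 275 and 137 in wt and 411, 406 and 501 in FasL KO. It rose by 0.77 ± 0.24 on the log2 scale (SE, edgeR adjusted p = 0.0407), and the call was lost under scaling by library size (0.0831) and without each library except wt 2, with edgeR adjusted p from 0.0860 to 0.179. Pdia6 had no count in wt and 27, 8 and 22 counts in FasL KO. It was not tested, and its mean level in FasL KO was 12.7 times the same floor. Its end overlaps Atp6v1c2 on the other strand.

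Of 9 general ER chaperone genes, 7 were tested, and 1 of these, the calreticulin gene, rose. The log2 fold change was above 0 in all 7, with a median of 0.65, and 6 did not pass. Calr (ENSMUSG00000003814, chromosome 8, 84841850 to 84846934, minus strand), a calcium-binding lectin chaperone, was at 841, 871 and 899 CPM in wt and at 1874, 1923 and 1911 CPM in FasL KO. These levels rested on counts of 1789, 2756 and 2928 in wt and 7512, 7292 and 9311 in FasL KO. The libraries of each group lay close together and the groups far apart. Calr rose 2.19-fold, by 1.13 ± 0.09 on the log2 scale (SE, edgeR adjusted p = 7.47e-07), from 0.97 to 1.15 over the 12 alternative fits. The membrane-bound partner Canx was at 19.3, 14.2 and 14.7 CPM in wt and at 29.9, 27.7 and 29.8 CPM in FasL KO. Its groups did not overlap, and its log2 fold change of 0.86 ± 0.33 did not pass (edgeR adjusted p = 0.0925). Creld2, an ER protein induced by stress, had 0.76 ± 0.29 (edgeR adjusted p = 0.0956, and 0.0455 without wt 3), and its groups did not overlap. Neither did those of Sdf2l1, another stress-induced ER protein, with 0.54 ± 0.29. Hsp90b1, which encodes GRP94 and has a shared end, was at 42.3, 21.5 and 19.7 CPM in wt and at 26.7, 60.1 and 42.7 CPM in FasL KO, with overlapping groups and 0.65 ± 0.37. The BiP cochaperone genes Dnajb9 and Dnajb11 had 0.22 ± 0.22 and 0.21 ± 0.29, with overlapping groups. Hyou1, a chaperone of the HSP70 class with a shared end, had 6 counts in sum and was not tested.

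Chaperone genes share promoter elements, shown because the genes that hold them are the classical targets of the unfolded protein response. No sequence was used to choose the 46 genes, but they were chosen partly as genes of that response. Their higher shares below therefore follow in part from the choice and are no independent result. Windows from 250 bases before to 50 after the RefSeq start (GRCm38.p6) were found for 36 of the 46 genes and searched on both strands for 3 motifs. The ER stress element ERSE is CCAAT, any 9 bases, then CCACG, the shorter ERSE-II is ATTGG, any 1 base, then CCACG, and the unfolded protein response element UPRE is TGACGTGG. ERSE was in 6 of the 36 genes (16.7%) and in 0.137% of 27025 genes with a window, ERSE-II in 2 (5.56%) and 0.0444%, and UPRE in 3 (8.33%) and 0.714%. Sequences upstream of the start are printed 5′ to 3′ on the gene's strand, with up to 20 bases on each side and the match in capitals, which reads in reverse orientation in Calr, Creld2, Kdelr3 and the second element of Hsp90b1.
Calr, ERSE, chr8:84847055-84847113, minus strand: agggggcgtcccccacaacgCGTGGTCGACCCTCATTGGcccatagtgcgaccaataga
Canx, ERSE, chr11:50325780-50325838, minus strand: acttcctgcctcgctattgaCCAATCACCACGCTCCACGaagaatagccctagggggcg
Creld2, ERSE, chr15:88819500-88819558, plus strand: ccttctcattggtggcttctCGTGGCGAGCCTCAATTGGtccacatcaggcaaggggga
Hsp90b1, first ERSE, chr10:86705618-86705676, minus strand: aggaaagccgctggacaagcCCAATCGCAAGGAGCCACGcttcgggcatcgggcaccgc
Hsp90b1, second ERSE, chr10:86705513-86705571, minus strand: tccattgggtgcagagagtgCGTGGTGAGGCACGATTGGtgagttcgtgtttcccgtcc
Hspa5, ERSE, chr2:34772005-34772063, plus strand: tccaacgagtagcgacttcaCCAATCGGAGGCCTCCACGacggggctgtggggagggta
Pdia6, ERSE, chr12:17266471-17266529, plus strand: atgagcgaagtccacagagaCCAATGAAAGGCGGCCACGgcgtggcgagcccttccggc
Herpud1, ERSE-II, chr8:94386357-94386407, plus strand: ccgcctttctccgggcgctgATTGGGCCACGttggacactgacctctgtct
Kdelr3, UPRE, chr15:79516358-79516405, plus strand: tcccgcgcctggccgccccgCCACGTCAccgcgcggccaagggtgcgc

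The elements were found in genes of every call. Of the 12 that rose, 9 had a window and 2 held an element, Calr and Kdelr3. Of the 19 that were tested and did not pass, 15 had a window and 6 held one (Canx, Creld2, Dnajb11, Hsp90b1, Sec23a and Sec24d), and of the 15 not tested, 12 had a window and Herpud1, Hspa5 and Pdia6 held one. The log2 fold change was above 0 in all 8 tested genes with an element, from 0.21 in Dnajb11 to 1.79 ± 1.42 in Sec24d, which did not pass. It was also above 0 in 27 of all 31 tested genes. Whether genes with and without an element differ was not tested. Fkbp9, P4hb, Pdia3, Pdia4, Plod1, P3h3 and Sar1a rose and held none of the 3 motifs in this window. The elements of Dnajb11 and Sec23a lie after the start site, and they and that of Sec24d are not printed. A match is a description of the sequence and was not tested as a binding site.

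None of the stress regulators passed: 0 of 4 tested of 6 in edgeR, with 0 also in DESeq2 and limma-voom and 1, Xbp1, at an unadjusted p under 0.05. Xbp1, the factor activated by the sensor IRE1, was at 172, 222 and 243 CPM in wt and at 302, 270 and 248 CPM in FasL KO. The lowest FasL KO library lay just above the highest wt library, and the log2 fold change was 0.36 ± 0.15 (edgeR adjusted p = 0.139). The counts do not separate its spliced and unspliced forms. Creb3l1, which encodes OASIS, a factor that activates Col1a1 in mouse osteoblasts, was at 222, 229 and 155 CPM in wt and at 225, 246 and 254 CPM in FasL KO, with overlapping groups and 0.26 ± 0.16. Atf6 was at 49.8, 107 and 93.6 CPM in wt and at 75.3, 53.8 and 62.6 CPM in FasL KO, with overlapping groups and −0.39 ± 0.26. Ddit3, which encodes the death-linked factor CHOP, rested on 170 counts, with 0.41 ± 0.62, and ran from −0.08 to 0.71 over the alternative fits. Its end is shared between transcripts and overlaps Mars on the other strand.

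In export from and return to the ER, 3 of 6 genes rose, and all 6 were tested. The KDEL receptor gene Kdelr3 (ENSMUSG00000010830, chromosome 15, 79516411 to 79527739, plus strand) was at 91.2, 71.4 and 97.02 CPM in wt and at 168, 190 and 150 CPM in FasL KO. The raw counts were 194, 226 and 316 in wt and 674, 721 and 729 in FasL KO. It rose 1.96-fold, by 0.97 ± 0.18 on the log2 scale (SE, edgeR adjusted p = 0.00112), without overlap. Its end overlaps Ddx17 on the other strand, whose log2 fold change was 0.35 ± 0.77. Kdelr2 (ENSMUSG00000079111, chromosome 5, 143403838 to 143421901, plus strand) was at 616, 576 and 577 CPM in wt and at 843, 888 and 811 CPM in FasL KO. Before scaling, the counts were 1311, 1823 and 1878 in wt and 3381, 3366 and 3949 in FasL KO. The groups did not overlap, and Kdelr2 rose by 0.52 ± 0.10 on the log2 scale (SE, edgeR adjusted p = 0.00232).

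Sar1a, a GTPase that starts COPII assembly, was at 217, 272 and 223 CPM in wt and at 320, 394 and 340 CPM in FasL KO. Read counts were 461, 860 and 725 in wt and 1284, 1493 and 1658 in FasL KO. It rose by 0.57 ± 0.14 on the log2 scale (SE, edgeR adjusted p = 0.00950), a call that was lost without wt 1 (0.0553), wt 3 (0.0602) or FasL KO 2 (0.0724). Its paralog Sar1b pointed the other way, at 171, 140 and 171 CPM in wt and at 121, 107 and 144 CPM in FasL KO. These groups overlapped, and the log2 fold change of −0.37 ± 0.17 did not pass (edgeR adjusted p = 0.163), except under scaling by library size (−0.53, edgeR adjusted p = 0.0399). Sec23a, of the inner COPII coat and the gene of a human skull ossification disorder, was at 189, 271 and 201 CPM in wt and at 281, 294 and 334 CPM in FasL KO. Its groups did not overlap, and its log2 fold change of 0.46 ± 0.15 just missed the threshold (edgeR adjusted p = 0.0549). Sec23a passed in DESeq2 (adjusted p = 0.0265), limma-voom (0.0345), without the low-count filter (0.0292) and without wt 2 (0.00703). Its partner Sec24d, with a shared end, had 11, 2 and 0 counts in the wt libraries, against 42, 0 and 42 in FasL KO, with 1.79 ± 1.42.

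Other genes of the same route were read from lists of ER folding and stress genes and of translocation and vesicle transport genes. Of 39 tested folding and stress genes of 62, 3 rose (7.69%, beside 9.74% of all genes tested) and 0 fell (beside 7.69%). The share that rose was thus no higher than over all genes. The median log2 fold change of the 39 was 0.10, beside 0.02 over all genes. At an unadjusted p under 0.05, 5 were higher and 2 lower, and DESeq2 and limma-voom each called 3 higher and 0 lower. Those that rose were Pdia5, a disulfide isomerase, from 34.2 ± 11.4 to 89.2 ± 12.8 CPM (SD, n = 3; log2 fold change 1.37 ± 0.26, edgeR adjusted p = 0.00145), the cargo lectin gene Lman2 (0.59 ± 0.17, edgeR adjusted p = 0.0257) and the cyclophilin gene Ppic (0.34 ± 0.11, edgeR adjusted p = 0.0407). Under scaling by library size 1 of the 39 rose and 1 fell, and 1 rose when any single library other than wt 2 was left out.

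Of 48 tested translocation and transport genes of 76, 7 rose (14.6%, beside 9.74% of all genes tested) and 0 fell (beside 7.69%). The median log2 fold change of the 48 was 0.46, and it was above 0 in 40 of them, beside 51.3% of all genes. At an unadjusted p under 0.05, 14 were higher and 2 lower, DESeq2 called 8 higher and limma-voom 7, and both called 0 lower. Leading them were the cargo receptor gene Tmed3, from 281 ± 15.2 to 448 ± 39.3 CPM (SD, n = 3; log2 fold change 0.67 ± 0.12, edgeR adjusted p = 0.00115), the signal recognition particle gene Srp54a (0.92 ± 0.18, edgeR adjusted p = 0.00179), the translocon gene Ssr1 (0.53 ± 0.11, edgeR adjusted p = 0.00375) and the SNARE gene Sec22b (0.94 ± 0.22, edgeR adjusted p = 0.00649). Srp54a has near-identical copies in the mouse genome, so its counts are uncertain. With the replicate number as a block, under scaling by library size, or without FasL KO 1, 4 of the 48 rose. Without wt 3, where the low-count filter was applied anew, 4 of 52 tested genes rose.

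**Figure D4:**
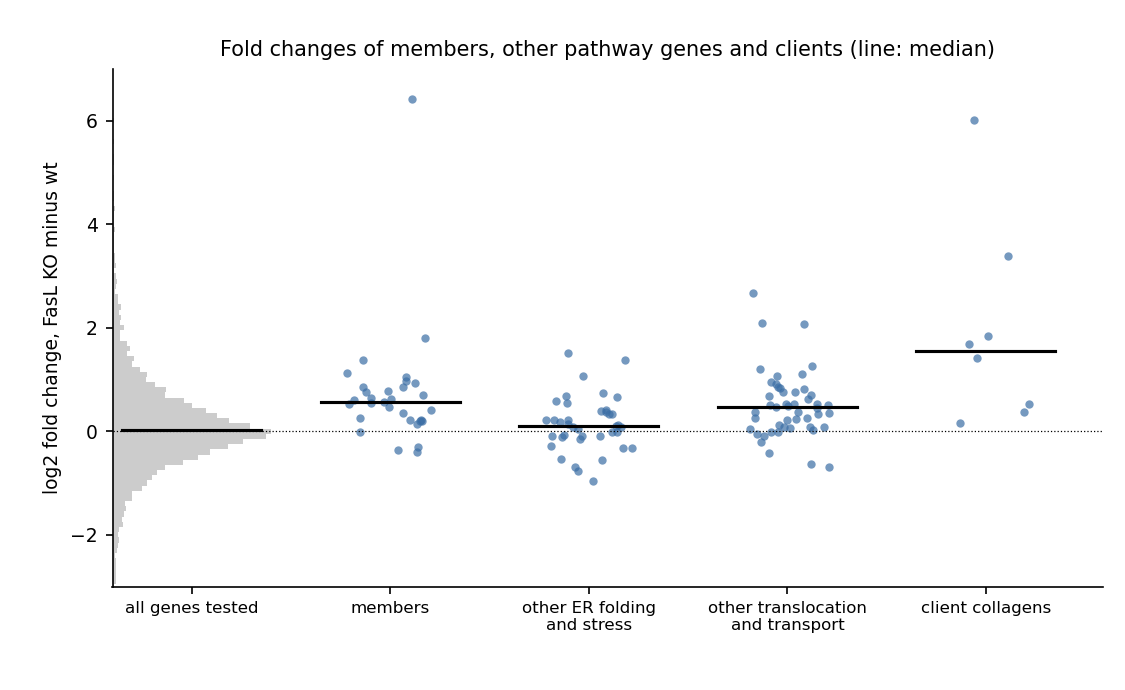
Log2 fold change, FasL KO minus wt, of all genes tested (histogram, scaled to its tallest bar), of the 31 tested genes of collagen folding and secretion, of other pathway genes and of fibrillar collagen chains (points, genes; lines, medians). The axis runs from −3 to 7 and genes beyond it are not drawn. Medians are 0.02, 0.57, 0.10, 0.46 and 1.55 from left to right.

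Most of the fibrillar collagen chains that this machinery folds also rose. Of 8 tested chains of 9, 5 rose and 0 fell, beside 9.74% and 7.69% of all genes tested. At an unadjusted p under 0.05, 7 chains were higher and 0 lower, and DESeq2 and limma-voom each called 5 and 0. The median log2 fold change of the chains was 1.55. Leading them were Col11a1, a chain of cartilage-type fibrils, with a log2 fold change of 3.38 ± 0.22, the main bone collagen gene Col1a1 with 1.83 ± 0.12, Col11a2 with 6.02 ± 0.43 and Col1a2 with 1.68 ± 0.12 (SE, edgeR adjusted p at most 1.67e-07). Col11a2 had 0, 7 and 7 counts in the wt libraries. The collagen V chains did not pass, with log2 fold changes of 0.37 ± 0.15 for Col5a1, 0.15 ± 0.11 for Col5a2 and 0.54 ± 0.20 for Col5a3. These lists are not separate observations: Col11a2 and Col2a1 are also among the chondrocyte markers above, and Col1a1 and Col1a2 among the osteoblast markers. The part of chondrocytes in these values was not tested.

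The 46 genes together took 0.509%, 0.547% and 0.540% of all counts in wt and 0.750%, 0.758% and 0.759% in FasL KO, or 5084 ± 279 CPM and 8044 ± 155 CPM (SD, n = 3). For each count of these genes there were 3.35, 4.42 and 3.35 counts of Col1a1 and Col1a2 in wt and 7.79, 8.36 and 7.54 in FasL KO. This ratio does not depend on how libraries are scaled. The groups did not overlap, and the mean ratio in FasL KO was 2.13 times that in wt, from 2.03 to 2.36 times with 1 library left out. It compares libraries and does not give molecules of collagen per molecule of enzyme. Because genes such as Serpinh1 and Hspa5 gave few or no counts, the sum rests mostly on abundant genes such as Calr and Fkbp9. No test was made of a sum over chosen genes.

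**Figure D5:**
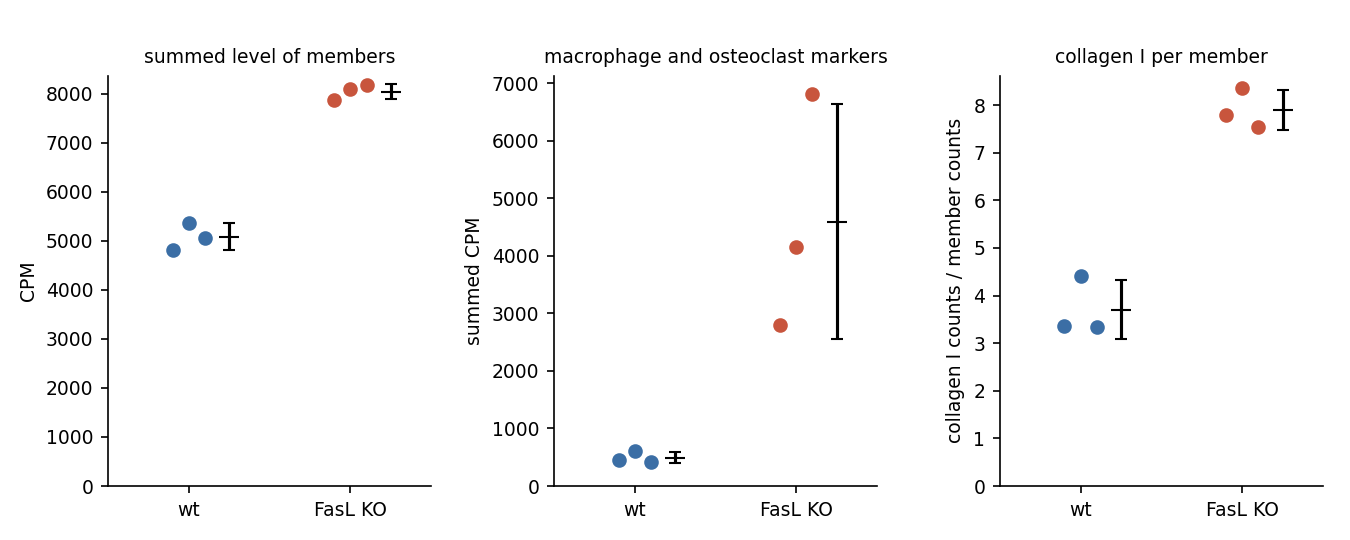
Summed level of the 46 genes (CPM), summed level of macrophage and osteoclast markers (CPM) and collagen I counts per count of the 46 genes, in each library (points) with the mean ± SD of 3 libraries (black). All 3 are higher in FasL KO in every library, the marker sum with the widest spread (2801 to 6813 CPM). The marker sum is mostly Cd14 and Ctsk in wt and mostly Lyz2 in FasL KO.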

How the data were processed

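QuantSeq 3′ mRNA-Seq FWD libraries were made from total RNA, per the labels' protocols. Per the series' design text, reads were single-end, trimmed with Cutadapt and aligned with STAR. FastQC, Trim Galore, DESeq2 and the build mm10 are named in the submitters' processing notes. Not given in the sources used here are the counter, its strand setting and its annotation, so reads of overlapping genes on opposite strands cannot be told apart. The deposited values are raw counts, whole numbers of reads for each Ensembl identifier. Its 1 empty row was left out, 0 sample columns were unused, and symbols were found for 51883 of 57180 identifiers.

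Genes were kept by filterByExpr (about 10 counts in 3 libraries and 15 in total), scaled by TMM and tested by the quasi-likelihood method of edgeR 4.0.16 in R 4.3.3, FasL KO against wt over 6 libraries with no covariate, with Benjamini-Hochberg adjustment over 8692 genes. A standard error is the size of the log2 fold change over √F. CPM are on the TMM scale. For ratios, a group without counts was set to a floor of 3 in sum. The test was also run on counts simulated from its own fitted model with planted changes. Such a check covers the code and cannot give the error rate in these data. Alternatives were RLE size factors, library size alone, no filter, DESeq2 1.42.0, limma-voom (limma 3.58.1), the replicate number as a block, and leaving out each library. All genes on the list are accounted for, those past the threshold with values per library, and from each other list up to 4 in order of adjusted p. The genes, lists and tests were chosen with earlier results of these data known. Gene ends and positions come from GENCODE M21 (GRCm38) and promoters from RefSeq GRCm38.p6. Total counts, 2011173 to 5245546, limit the precision of low genes.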

Additional observations from a re-analysis of the deposited data

How the results depend on the processing

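Of the 12 genes that rose, 6 kept their call in each alternative and 6 lost it in at least 1, and no gene was called in the opposite direction. Of the other tested genes, Sec23a, Creld2 and Sar1b passed in at least 1. Leaving out a library, with the low-count filter applied anew, gave 7 (without FasL KO 3) to 13 genes higher of 31 to 35 tested and 0 lower. It gave 1 to 4 other folding and stress genes higher and 0 to 1 lower, 4 to 6 transport genes higher and 0 to 1 lower, and 684 to 867 genes higher and 504 to 605 lower over all genes. Under scaling by library size alone 1 gene of the 31 was lower, 1 folding and stress gene was higher and 1 lower, and 4 transport genes were higher and 2 lower. Without the low-count filter 1 transport gene was lower. The causes were not tested.

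With the replicate number as a block 12 of the 31 genes rose, 4 transport genes rose instead of 7, and 760 genes rose and 599 fell over all genes. Libraries with the same number did not deviate together from their group means (correlations from −0.0231 to −0.0150 across genes), and none correlated best with its own number. The labels do not say whether such libraries share a culture or a day, and these correlations cannot tell. At these depths genes with a few counts per library, such as Crtap or Sec24d, could not show a change of the size seen in Kdelr2.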
